A study of Mus musculus with 4 samples.

Results

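Blood vessels of the stomach were described through 10 genes of endothelial cells, the cells that line vessels. The genes were Pecam1, Cdh5, Kdr, Tek, Tie1, Emcn, Vwf, Plvap, Cldn5 and Eng, taken from a list of endothelial markers and found by symbol among the 22180 genes measured. Each was read by 1 probe set with 1 gene symbol, so no choice among probe sets was needed for any of the 10. The study compared stomach tissue of FVB mice aged 1 year on Affymetrix arrays, with 2 arrays of Hdc+/+ and 2 of Hdc-/- mice by their labels. The gene Hdc codes for histidine decarboxylase, which produces histamine, and both groups shared strain, age, diet and housing as the labels give them. The labels name no further allele or treatment, and the tissue was bulk and unsorted. The sources used here do not state how the Hdc-/- allele was made or which part of the stomach was taken. The replicates are biological by their titles, but whether each was 1 animal is unstated, and p-values reflect only how these samples vary.

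Endothelial cells sense growth factors, hold the vessel wall closed and control what passes from blood to tissue. VEGF acts through the receptor VEGFR2 (Kdr) and angiopoietins act through the receptor Tie2 (Tek), with Tie1 as its partner receptor, while VE-cadherin (Cdh5), PECAM-1 (Pecam1) and claudin-5 (Cldn5) join neighbouring cells. Histamine is known to loosen these junctions in small veins, and the gastric mucosa has a dense capillary bed with fenestrated endothelium.

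Signals were log2 values, on which a difference of 1 is a doubling, and every difference below is the mean of the Hdc-/- arrays minus the mean of the Hdc+/+ arrays. The 4 arrays had medians from 4.05 to 4.15 over all probe sets. The targeted gene read 3.99 and 3.82 on the Hdc+/+ arrays and 3.77 and 4.06 on the Hdc-/- arrays, so Hdc did not separate the genotypes and directions rest on the labels. The sources used here do not say whether the Hdc probes lie in the deleted part. Glandular stomach was recognisable on every array, with Gkn2, a secreted protein of gastric surface cells, between 13.23 and 13.35. The 10 genes of the gastric list had a median difference of -0.02, with 5 below 0 and 5 above. Its smallest p-values were those of Chga (1.89, SE 0.23), Cblif (1.07, SE 0.25) and Pgc (0.64, SE 0.25, and 0.30 without Hdc+/+ array 2). Both Hdc-/- arrays lay above both Hdc+/+ arrays for these 3 genes, and below them for 1 other. Over all genes the shares were 21.5% and 17.6%. Hdc+/+ array 2 stood apart in genes of other organs, with pancreatic acinar genes that summed to 6294 on the linear scale against 234 to 433 on the other 3 arrays. For the 10 endothelial genes, values that rest on this array are given with and without it. Hdc+/+ array 1 also stood above both Hdc-/- arrays in hepatocyte genes, which summed to 4874 against 593 and 857. Leaving out Hdc+/+ array 2 therefore does not even out tissue of other organs between genotypes.

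Over the 10 endothelial genes, 9 read lower on the Hdc-/- arrays and 1 read higher, and none of the 10 passed the test over all genes. The median log2 difference was -0.26, beside 0.02 over all 22180 genes, and a difference below 0 was found in 45.9% of all genes. Smooth muscle genes, which mark the vessel wall and the muscle coat of the stomach, lay lower by a like amount, with 11 of 11 below 0 and a median of -0.24, and their part in the endothelial values was not tested. The groups did not overlap, with both Hdc-/- arrays below both Hdc+/+ arrays, for 5 of the 10 (50%), against 17.6% of all genes. The opposite separation was found for 0 of the 10, against 21.5% of all genes. By limma 0 of the 10 passed at an adjusted p under 0.05, where 1 gene of 22180 passed (0.00451%), and before adjustment p was under 0.05 for 2 in the lower direction (4.87% of all genes) and 0 in the higher (3.68%). The 2 lower genes were Emcn and Tek. With any single array left out fewer of the 10 had such a p, and not always Emcn or Tek. The share of all genes was not computed there. The median was -0.11 without Hdc+/+ array 2 and -0.36 without Hdc+/+ array 1. Without Hdc+/+ array 2 the count without overlap was still 5 lower, against 32.9% of all genes, and without Hdc+/+ array 1 it was 9, against 27.8%. It was 7 without Hdc-/- array 1, against 33.5%, and 6 without Hdc-/- array 2, against 33.6%. In bulk tissue, fewer endothelial cells and less RNA per cell cannot be told apart.

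**Figure D1:**
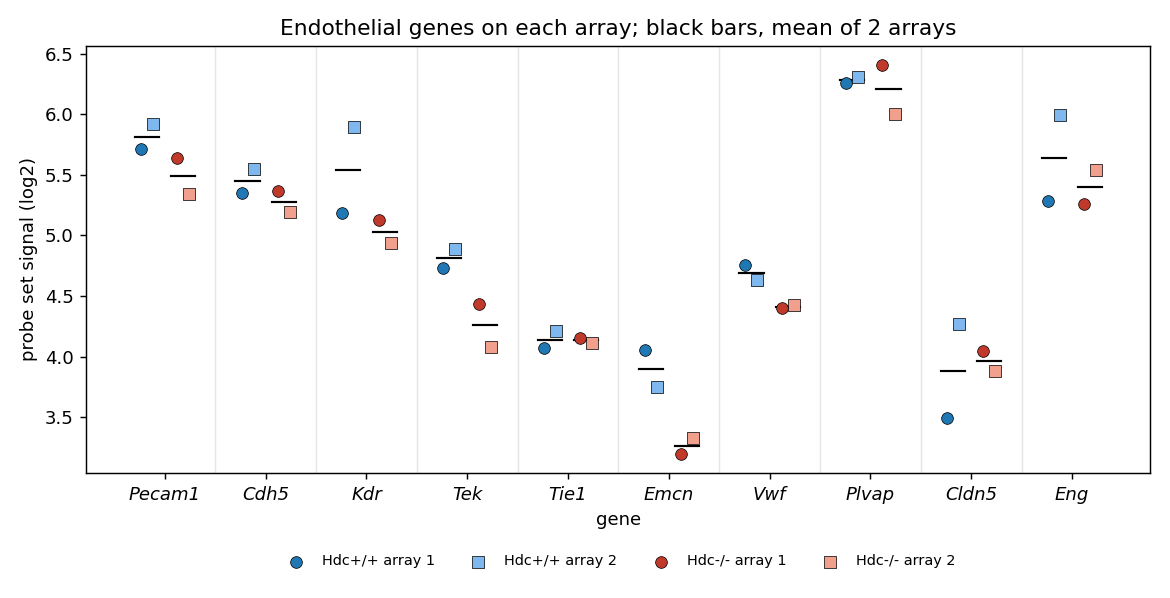
Log2 probe set signal (vertical axis) of the 10 endothelial genes (horizontal axis) on each of the 4 arrays, with the mean of the 2 arrays of a genotype as a black bar. Emcn and Tek show both Hdc-/- arrays below both Hdc+/+ arrays, Tie1 lies between 4.07 and 4.21 on all 4, and Kdr, Cldn5 and Eng have Hdc+/+ arrays that lie more than 0.7 apart.

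The 2 genes with the differences farthest from 0 were Emcn and Tek. Emcn encodes endomucin, a sialomucin on the surface of capillary and venous endothelium. It read 4.05 and 3.75 on the Hdc+/+ arrays and 3.20 and 3.33 on the Hdc-/- arrays. The lower Hdc+/+ value stood above both Hdc-/- values, and the highest value was on Hdc+/+ array 1. The log2 difference was -0.63 (SE 0.18, n = 2 per group), or 1.55-fold lower, with a 95% interval from -1.09 to -0.18 and a limma adjusted p of 0.460. The difference was larger without Hdc+/+ array 2 (-0.79) and -0.48 without Hdc+/+ array 1. Emcn was among the dimmer signals of the arrays, at percentiles from 20.8 to 36.8 among genes.

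Tek encodes Tie2, the receptor of the angiopoietins. It read 4.73 and 4.89 on the Hdc+/+ arrays and 4.44 and 4.08 on the Hdc-/- arrays. The groups did not overlap, and Hdc-/- array 2 was the lowest. The log2 difference was -0.55 (SE 0.19, n = 2 per group), or 1.47-fold lower, with a 95% interval from -1.04 to -0.07 and a limma adjusted p of 0.540. It was -0.47 without Hdc+/+ array 2 and -0.37 without Hdc-/- array 2. Emcn and Tek were the 2 genes of the 10 whose own 95% interval, which is not adjusted for the number of genes, lay below 0.

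Tie1, the partner receptor that resembles Tie2 and has no well-established ligand of its own, read 4.07 and 4.21 on the Hdc+/+ arrays and 4.15 and 4.12 on the Hdc-/- arrays. All 4 values lay within a narrow range and the groups overlapped. The log2 difference was -0.01 (SE 0.16), with a 95% interval from -0.41 to 0.39. A difference of Tek's size lay outside this interval, which describes the array signal only. Tie1 was among the dimmer signals, at percentiles from 37.4 to 41.7 among genes, below the gene median on every array. The log2 ratio of the Tek to the Tie1 signal within an array does not give relative abundance. With Tie1 nearly level, it mostly restates the Tek difference. It was 0.66 and 0.68 on the Hdc+/+ arrays and 0.29 and -0.04 on the Hdc-/- arrays. This pair was compared after its values were seen, and its exact two-sided permutation p of 0.333 is the smallest that 2 against 2 arrays allow.

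The promoters of Emcn and Tek are shown because these genes gave the largest differences, beside Tie1, whose values stayed together, and Cldn5, the 1 gene of the 10 with a difference above 0. Each is 250 bases before to 50 after a start site from RefSeq (GRCm38.p6), printed 5′ to 3′ on the gene's strand. Capitals mark the letters GGAA, or TTCC where the match is on the other strand. GGAA is the core of the sites bound by ETS factors, a family with central members in endothelial cells.
Emcn, chr3:137340828-137341127, plus strand: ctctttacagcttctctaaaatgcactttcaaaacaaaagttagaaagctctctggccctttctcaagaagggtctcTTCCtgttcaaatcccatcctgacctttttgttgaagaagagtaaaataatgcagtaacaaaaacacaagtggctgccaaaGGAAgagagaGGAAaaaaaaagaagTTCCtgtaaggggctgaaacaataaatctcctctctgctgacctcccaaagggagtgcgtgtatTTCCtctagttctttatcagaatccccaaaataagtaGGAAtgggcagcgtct
Tek, chr4:94739039-94739338, plus strand: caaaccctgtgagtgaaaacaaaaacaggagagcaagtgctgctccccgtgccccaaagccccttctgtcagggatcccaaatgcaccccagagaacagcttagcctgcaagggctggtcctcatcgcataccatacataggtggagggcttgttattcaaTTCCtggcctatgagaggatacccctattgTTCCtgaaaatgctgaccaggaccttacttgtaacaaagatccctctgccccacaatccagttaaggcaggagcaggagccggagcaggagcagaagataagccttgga
Tie1, chr4:118489800-118490099, minus strand: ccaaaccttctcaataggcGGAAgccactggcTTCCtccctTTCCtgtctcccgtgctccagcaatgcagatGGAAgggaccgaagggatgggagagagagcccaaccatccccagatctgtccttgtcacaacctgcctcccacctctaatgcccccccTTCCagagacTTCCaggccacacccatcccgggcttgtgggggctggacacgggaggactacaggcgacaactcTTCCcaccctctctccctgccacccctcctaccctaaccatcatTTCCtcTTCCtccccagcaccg
Cldn5, chr16:18776597-18776896, plus strand: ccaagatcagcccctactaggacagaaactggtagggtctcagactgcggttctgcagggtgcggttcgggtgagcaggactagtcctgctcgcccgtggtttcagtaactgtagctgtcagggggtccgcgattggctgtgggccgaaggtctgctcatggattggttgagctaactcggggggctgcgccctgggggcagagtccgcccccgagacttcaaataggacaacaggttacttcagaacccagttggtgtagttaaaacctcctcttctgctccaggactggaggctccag

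The table of promoters matched 6 of the 10 genes, the 4 shown and Kdr and Eng, with 1 window each. Counted on both strands, GGAA occurred 6 times in the Emcn window, 2 times in Tek, 9 in Tie1, 0 in Cldn5, 5 in Kdr and 4 in Eng. Of all 32851 promoter windows of the same length 96.0% held GGAA at least once, so its presence did not set these genes apart, and 4.02% held none, as Cldn5 did. The longer word CAGGAA, which contains GGAA and was counted on both strands, occurred 2 times each in Emcn and Tek, 1 time each in Tie1 and Eng and 0 times in Kdr and Cldn5. At least 1 match was present in 30.6% of all windows and 2 or more in 5.9%. These are matches of letters in 1 window per gene, and no binding was measured.

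Kdr, the main signalling receptor for VEGF, read 5.18 and 5.90 on the Hdc+/+ arrays and 5.12 and 4.94 on the Hdc-/- arrays. The groups did not overlap, but Hdc+/+ array 1 lay close to Hdc-/- array 1 and Hdc+/+ array 2 stood well above the rest. The log2 difference was -0.51 (SE 0.27, n = 2 per group, limma adjusted p = 0.655), with a 95% interval from -1.18 to 0.16. It was -0.15 without Hdc+/+ array 2 and -0.87 without Hdc+/+ array 1, so 1 array set most of its size.

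Eng, which encodes the TGF-beta and BMP co-receptor endoglin, read 5.28 and 6.00 on the Hdc+/+ arrays and 5.26 and 5.54 on the Hdc-/- arrays. The groups overlapped, and Hdc+/+ array 2 was again the highest. The log2 difference was -0.24 (SE 0.28, adjusted p = 0.863) and its sign turned to 0.12 without Hdc+/+ array 2. Plvap, the protein of the diaphragms that span fenestrae and caveolae, read 6.25 and 6.31 on the Hdc+/+ arrays and 6.40 and 6.01 on the Hdc-/- arrays. The Hdc-/- arrays held both its highest and its lowest value. Its difference was -0.08 (SE 0.20), with a 95% interval from -0.57 to 0.41, and 0.12 without Hdc-/- array 2.

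The junction genes gave differences from -0.32 to 0.09, of which none passed the test. Pecam1, an adhesion molecule of endothelial contacts that platelets and leukocytes also carry, read 5.71 and 5.92 on the Hdc+/+ arrays and 5.64 and 5.34 on the Hdc-/- arrays, without overlap, a difference of -0.32 (SE 0.19, adjusted p = 0.689), which was -0.18 without Hdc-/- array 2. Cdh5, the cadherin of endothelial adherens junctions, read 5.35 and 5.55 against 5.37 and 5.19. Its groups overlapped by a small margin, and the difference was -0.17 (SE 0.17, adjusted p = 0.848), or -0.08 without Hdc-/- array 2. Cldn5, the claudin of endothelial tight junctions, read 3.49 and 4.27 on the Hdc+/+ arrays and 4.05 and 3.88 on the Hdc-/- arrays. Both Hdc-/- values lay between the Hdc+/+ values, which were the farthest apart of the 10 genes. The difference was 0.09 (SE 0.28), with a 95% interval from -0.61 to 0.79, and it was -0.30 without Hdc+/+ array 1 and 0.47 without Hdc+/+ array 2. Whether the 3 genes differ from each other in their response was not tested.

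Vwf, the gene of von Willebrand factor, a clotting protein stored in endothelial granules and also made by megakaryocytes, read 4.76 and 4.63 on the Hdc+/+ arrays and 4.40 and 4.42 on the Hdc-/- arrays. The groups did not overlap, and the arrays of each genotype lay close together. The log2 difference was -0.28 (SE 0.16, n = 2 per group, limma adjusted p = 0.682), with a 95% interval from -0.68 to 0.12. It ran from -0.22 to -0.35 when single arrays were left out. The platelet list, which Vwf could share a source with, had 8 of 11 genes measured, of which 4 lay below 0, and a median of 0.03, or -0.04 without Hdc+/+ array 2. Ppbp, the precursor of platelet chemokines, ran the same way as Vwf, reading 4.86 and 4.63 against 3.76 and 3.98 without overlap, a difference of -0.87 (SE 0.18, adjusted p = 0.342). Pf4, named after its values were seen, was also lower without overlap (-0.16, SE 0.17). The receptor genes Gp9 (0.27, SE 0.17) and Gp6 (0.51, SE 0.41, and -0.08 without Hdc+/+ array 2) had the next smallest p-values. Platelet genes had summed linear signals of 189 and 165 on the Hdc+/+ arrays and 166 and 185 on the Hdc-/- arrays.

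**Figure D2:**
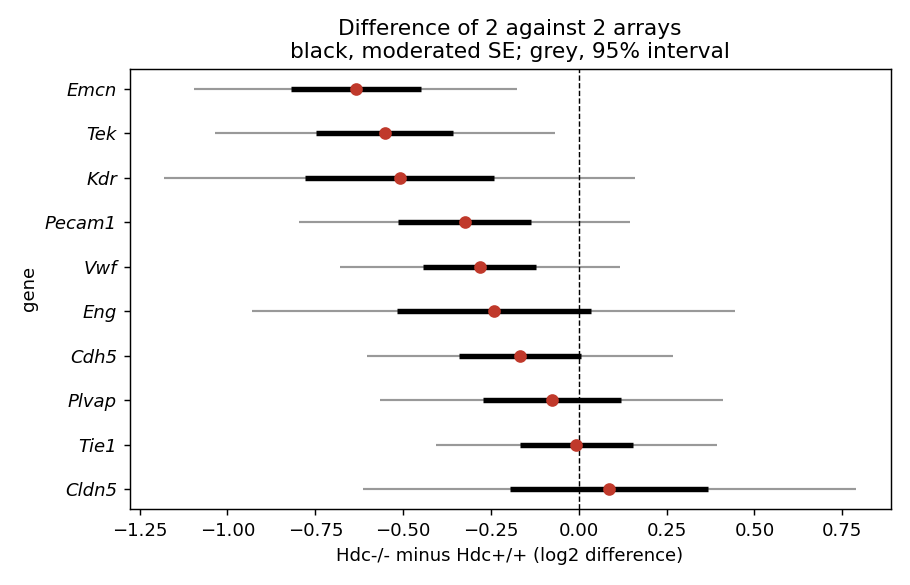
Log2 difference, Hdc-/- minus Hdc+/+ (horizontal axis), of each endothelial gene (vertical axis) from 2 arrays per genotype, with the moderated SE as a thick black line and the 95% interval as a grey line. The intervals of Emcn (-1.09 to -0.18) and Tek (-1.04 to -0.07) lie below 0 and the other 8 include it.

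The spread between arrays of a genotype was as large as many of the differences. The Hdc+/+ arrays lay farther apart than the size of the genotype difference for 5 of the 10 genes. They differed by more than 0.7 for 3 genes, Kdr, Cldn5 and Eng, whereas the Hdc-/- arrays differed by at most 0.40. Hdc+/+ array 2 held the highest value for 7 genes, and Hdc-/- array 2 the lowest for 5. Set around each gene's mean, the median of the 10 genes was -0.002 and 0.22 on the Hdc+/+ arrays and -0.06 and -0.20 on the Hdc-/- arrays. The sign of the difference was the same with any 1 array left out for 6 genes, Pecam1, Cdh5, Kdr, Tek, Emcn and Vwf.

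**Figure D3:**
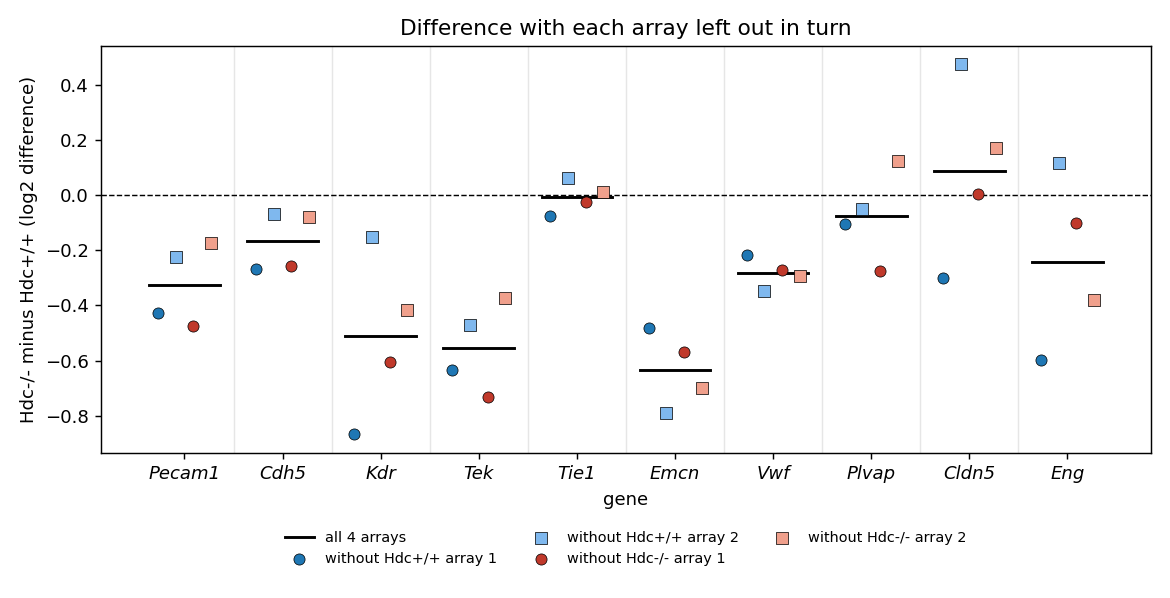
Log2 difference, Hdc-/- minus Hdc+/+ (vertical axis), of each endothelial gene (horizontal axis) with all 4 arrays (black bar) and with 1 array left out (points, coloured by the array left out). Kdr goes from -0.87 to -0.15 and Cldn5 from -0.30 to 0.47 between the 2 Hdc+/+ arrays, while Vwf stays between -0.35 and -0.22.

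Other genes of the same pathways were examined in lists, with the test over all 22180 genes, which 0 genes of any list passed in either direction. The shares of all genes given above (17.6% lower and 21.5% higher without overlap, 4.87% lower and 3.68% higher at an unadjusted p under 0.05) are the background for each list's counts. The VEGF and angiopoietin list of 13 further genes had a median of -0.05, with 8 below 0, and an unadjusted p was under 0.05 for 1 lower gene and 0 higher ones. Its smallest p-values belonged to Vegfd, a ligand of lymphatic growth (4.56 and 4.78 against 3.68 and 4.29, difference -0.68, SE 0.25), Pgf, a ligand of VEGFR1 (0.40, SE 0.17), and Flt4, the VEGFR3 receptor of lymphatic endothelium (-0.45, SE 0.24). Without Hdc-/- array 1 Vegfd was at -0.38 and Flt4 at -0.17. The list's median was 0.11 without Hdc+/+ array 2. Vegfa, the principal ligand of Kdr, read 6.88 and 7.02 against 7.24 and 6.73, a difference of 0.04 (SE 0.22), and Ptprb, the phosphatase that dampens Tie2 signalling, read 4.86 and 5.31 against 4.48 and 4.83 (-0.43, SE 0.23, and -0.20 without Hdc+/+ array 2). Vegfa was -0.22 without Hdc-/- array 1. Vegfa and Ptprb were chosen after their values were seen.

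Partners of endoglin in TGF-beta and BMP signalling formed a list of 11 genes with a median of 0.09. Of these 7 lay above 0 and 4 below, and an unadjusted p was under 0.05 for 2 higher genes and 0 lower ones. The receptor-activated factor gene Smad9 read 4.73 and 4.55 on the Hdc+/+ arrays and 5.24 and 5.19 on the Hdc-/- arrays, a difference of 0.58 (SE 0.16, adjusted p = 0.454). Id3, a target of BMP signalling, differed by 0.48 (SE 0.16) and Smad1 by 0.53 (SE 0.22), both without overlap. Smad1 was at 0.28 without Hdc+/+ array 1. These genes are expressed in many cell types of the stomach, so their values do not belong to endothelium alone. Over the list, 5 genes were higher without overlap and 1 was lower. The lower gene was Acvrl1 (-0.28, SE 0.19, and -0.10 without Hdc+/+ array 2), named after its values were seen.

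In the list of Notch, arterial and venous genes, Nr2f2 stood out. It encodes COUP-TFII, a nuclear receptor of venous identity that stromal cells also express. Nr2f2 read 6.86 and 6.59 on the Hdc+/+ arrays and 7.70 and 7.67 on the Hdc-/- arrays, a difference of 0.96 (SE 0.18, adjusted p = 0.291) or 1.94-fold, and it was from 0.82 to 1.09 with each array left out. The Notch ligand gene Jag2 differed by -0.65 (SE 0.18, adjusted p = 0.451) and the arterial gap junction gene Gja5 by 0.33 (SE 0.17). The 13 genes had a median of 0.06, with 4 below 0, and the median was -0.03 without Hdc+/+ array 2. Of these 13, 2 were lower without overlap and 4 higher, and an unadjusted p was under 0.05 for 1 lower gene and 1 higher.

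The 16 transcription factor genes of endothelial cells had a median of 0.01, and an unadjusted p was under 0.05 for 1 higher gene and 0 lower ones. The higher gene was Lyl1, a basic helix-loop-helix factor of endothelial and blood cells, which read 4.21 and 4.22 against 4.71 and 4.83, a difference of 0.56 (SE 0.16, adjusted p = 0.456). The next smallest p-values were those of Gata2 (0.24, SE 0.19, and 0.10 without Hdc-/- array 1) and Ets2 (0.24, SE 0.19, and 0.065 without Hdc-/- array 2). The ETS factors Erg and Fli1, named after their values were seen, differed by 0.04 (SE 0.26) and 0.03 (SE 0.16), and single arrays left out moved Erg from -0.23 to 0.31.

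A list of other endothelial genes had 24 of 25 measured, a median of -0.09 and 17 below 0. Of these, 8 were lower without overlap, and an unadjusted p was under 0.05 for 2 lower genes and 0 higher ones. Cav1, the coat protein of caveolae, read 7.26 and 7.14 on the Hdc+/+ arrays and 6.06 and 6.04 on the Hdc-/- arrays. The arrays of each genotype lay close together, and the difference of -1.15 (SE 0.16, adjusted p = 0.247) or 2.21-fold was from -1.09 to -1.20 with each array left out. Cd34, a sialomucin of capillaries and progenitor cells, read 6.35 and 6.56 against 5.77 and 5.82, a difference of -0.66 (SE 0.17, adjusted p = 0.408). Myct1 differed by -0.38 (SE 0.17). Cav1 is abundant in adipocytes and Cd34 in stromal cells of fat, and the adipocyte list lay lower on the same arrays. It had 10 of 12 genes measured and a median of -1.15. Its summed linear signal was 1814 and 2556 on the Hdc+/+ arrays and 799.9 and 1081.5 on the Hdc-/- arrays, and its part in the Cav1 and Cd34 values was not tested.

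**Figure D4:**
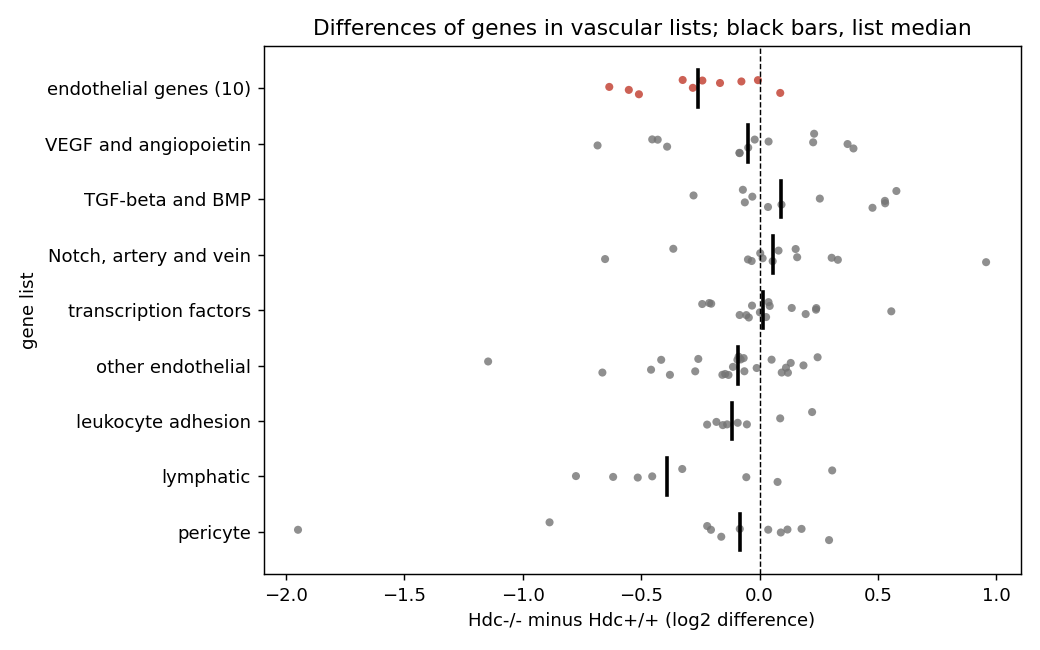
Log2 difference, Hdc-/- minus Hdc+/+ (horizontal axis), of the genes in 9 vascular lists (rows), 1 point per gene, with the list median as a black bar. The medians were -0.26 for the 10 endothelial genes and -0.39 for the lymphatic list, and they lay between -0.11 and 0.09 in the other 7.

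Lymphatic endothelium and the cells that wrap vessels were examined beside the blood vessel genes. The lymphatic list had 8 of 9 genes measured, of which 6 lay below 0 and 2 above. Its median was -0.39, or -0.22 without Hdc-/- array 1. The groups did not overlap for 4 lower genes and 1 higher, and an unadjusted p was under 0.05 for 2 lower genes and 0 higher ones. The higher gene without overlap was Pdpn (0.31, SE 0.20, and 0.12 without Hdc+/+ array 2), named after its values were seen. Mmrn1, an extracellular matrix protein of lymphatic endothelium and platelets, read 5.33 and 5.15 on the Hdc+/+ arrays and 4.40 and 4.53 on the Hdc-/- arrays, a difference of -0.78 (SE 0.17, adjusted p = 0.359). Lyve1, a hyaluronan receptor of lymphatic endothelium that some macrophages also carry, differed by -0.51 (SE 0.18). In the pericyte list of 11 genes, with a median of -0.08, Rgs5, a regulator of G protein signalling that marks pericytes, read 8.82 and 9.22 against 8.44 and 7.83, a difference of -0.89 (SE 0.27, adjusted p = 0.476), or -0.58 without Hdc-/- array 2. Vtn, the gene of vitronectin, which liver makes in quantity, read 6.52 and 8.72 against 5.46 and 5.88, a difference of -1.95 (SE 0.69) that was -0.85 without Hdc+/+ array 2. Ndufa4l2 differed by 0.29 (SE 0.19), or 0.12 without Hdc-/- array 2. In the pericyte list 4 genes were lower without overlap and 2 higher, and an unadjusted p was under 0.05 for 2 lower genes and 0 higher ones. Of the 11 smooth muscle genes, 6 were lower without overlap and 1 had an unadjusted p under 0.05. Their median of -0.24 was -0.15 without Hdc+/+ array 2. Around gene means the list stood at 0.04 and 0.20 on the Hdc+/+ arrays and -0.05 and -0.13 on the Hdc-/- arrays, and its signals summed to 3809 and 4146 against 3304 and 3288. The smallest p-values were those of Cnn1, the calponin of smooth muscle (-0.50, SE 0.17), the actin gene Actg2 (-0.49, SE 0.20, and -0.29 without Hdc-/- array 1) and Synpo2 (-0.51, SE 0.29, and -0.20 without Hdc+/+ array 2).

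Adhesion molecules that bind leukocytes to the vessel wall had a median of -0.11 over 8 genes, and 0 had an unadjusted p under 0.05. Sele, the gene of E-selectin, differed by -0.18 (SE 0.17), Vcam1 by 0.22 (SE 0.20) and Icam1 by -0.22 (SE 0.25). Without Hdc-/- array 2 they were at -0.07, 0.065 and 0.11. Leukocyte genes read higher on the Hdc-/- arrays in 10 of 10 cases, with a median of 0.45. The groups did not overlap for 7 higher genes and 0 lower. An unadjusted p was under 0.05 for 5 higher genes and 0 lower ones. Their summed linear signals were 497 and 581 on the Hdc+/+ arrays and 793 and 676 on the Hdc-/- arrays. The smallest p-values were those of Laptm5 (0.59, SE 0.18), the actin-bundling gene Lcp1 (0.51, SE 0.16) and Cd48 (0.48, SE 0.17). Pecam1, which leukocytes also express, lay in the opposite direction, and the part of leukocytes in its value was not tested.

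Tissue of other organs varied across the same arrays. The hepatocyte list, with 13 of 14 genes measured, had summed linear signals of 4874 and 14817 on the Hdc+/+ arrays and 593 and 857 on the Hdc-/- arrays. The intestinal list, with 13 of 13 measured, summed to 1587 and 9045 against 777 and 635, and the squamous list, with 12 of 13, to 484 and 664 against 192 and 276. The pancreatic acinar list, with 8 of 10 measured, summed to 234 and 6294 against 398 and 433. None of these markers was at 0 on any array, but the lowest value of any probe set was 0.384. Values above 0 therefore do not show that a tissue was present. The 10 endothelial genes themselves summed to 343.0 and 415 against 335 and 299. Genes of liver sinusoidal endothelium, with 9 of 9 measured, summed to 219 and 297 against 240 and 231 and had a median of -0.02. Of these, Stab2, a scavenger receptor of this cell type, read 3.58 and 3.93 on the Hdc+/+ arrays and 3.71 and 3.77 on the Hdc-/- arrays. Its signal was dim, at percentiles from 26.1 to 35.4 among genes. Clec4g (3.80 and 4.91 against 3.53 and 3.17) and Dnase1l3 (3.91 and 5.41 against 3.97 and 3.61) were highest on Hdc+/+ array 2. Clec4g differed by -1.01 (SE 0.38), or -0.46 without that array, Dnase1l3 by -0.87 (SE 0.48), or -0.12 without it, and Fcna by -0.33 (SE 0.19), or -0.19 without it. The part of other organs in the endothelial values was not tested. Without Hdc+/+ array 2 the list medians were still -2.79 (hepatocyte), -0.82 (adipocyte), -0.66 (intestinal) and -0.60 (squamous), and 0.08 (pancreatic). Leaving out that array thus did not even out other tissue between genotypes. In the same setting the differences of Emcn (-0.79) and Vwf (-0.35), both highest on Hdc+/+ array 1, were larger. That of Tek (-0.47) was close to its value over all 4 arrays. Those of Kdr (-0.15), Pecam1 (-0.22) and Cdh5 (-0.07) were smaller.

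**Figure D5:**
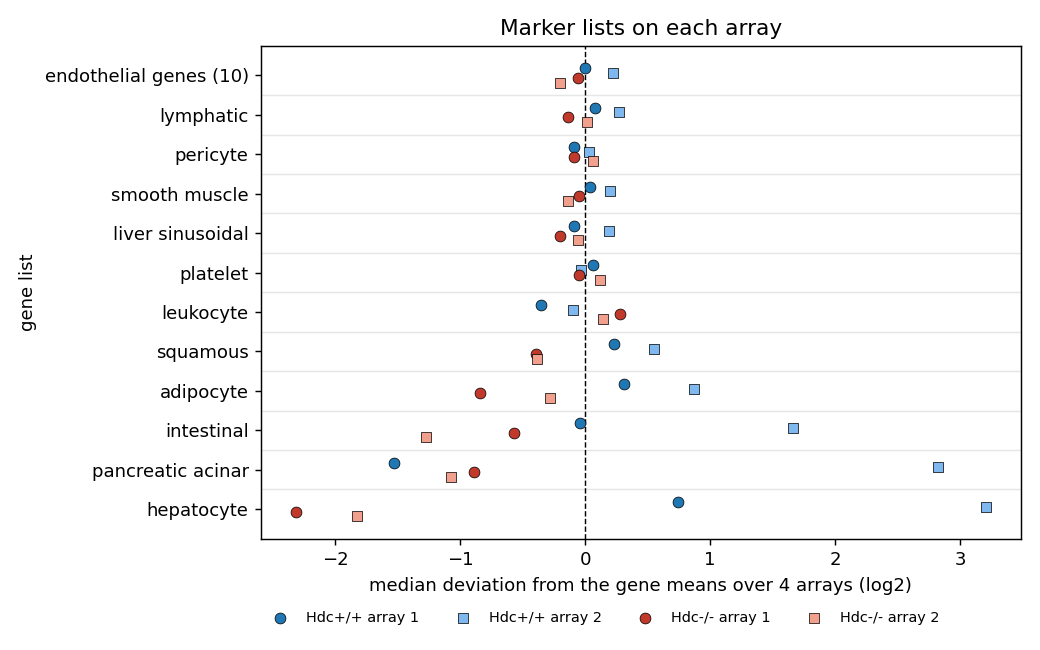
Median over the genes of a list (rows) of the deviation from each gene's mean over the 4 arrays, in log2 units (horizontal axis), with 1 point per array. The 10 endothelial genes lie between -0.20 and 0.22, while the hepatocyte list spans -2.31 to 3.21 and the pancreatic acinar list is at 2.82 on Hdc+/+ array 2 alone.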

How the data were processed

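The log2 probe set values were deposited by the authors, who normalized the arrays with RMA; oligo and Affymetrix Power Tools are also listed, both per the submitters' processing notes. No version, summarization level, filter or annotation build is given in the sources used. Of 41345 probe sets, 23521 had 1 gene symbol, 1814 several and 16010 none in the platform annotation. Probe sets with 1 symbol were kept, the one with the highest mean standing for a gene, which left 22180 genes, and no background values were available for a filter. Array number limits the precision.

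Genotypes were compared with limma 3.58.1 in R 4.3.3 (lmFit, eBayes, no covariate), with Benjamini-Hochberg adjustment over all genes at 0.05. It had 2 residual degrees of freedom, to which the prior added 3.62, and was tested on simulated data. Errors are moderated SEs. List sums add 2 raised to each value. The genes and lists were chosen with earlier results of these data known, and no list was given a set test. In the vascular, platelet, leukocyte, smooth muscle, liver sinusoidal and gastric lists the 3 genes with the smallest p are named. The hepatocyte, intestinal, pancreatic, squamous and adipocyte lists are given by sums or medians, without that naming. Stab2 and Gkn2 are named as cell type markers outside that rule, and other exceptions are stated. Alternatives concerned normalization, dim genes, the variance prior, a replicate block, every probe set and single arrays.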

Additional observations from a re-analysis of the deposited data

How the results depend on the processing

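Of 125 recomputed differences of single endothelial genes, 120 kept their direction and side of the threshold and 5 reversed. Dim gene filters, the variance prior, replicate blocks and probe set choices could not change a difference itself, only its p-value. All 5 reversals came with a single array left out. The reversed values were Cldn5 -0.30 without Hdc+/+ array 1, Tie1 0.061 and Eng 0.12 without Hdc+/+ array 2, and Tie1 0.01 and Plvap 0.12 without Hdc-/- array 2. With single arrays left out, Cldn5 ran from -0.30 to 0.47, Tie1 from -0.075 to 0.061, Plvap from -0.28 to 0.12 and Eng from -0.60 to 0.12. Endothelial genes past the threshold were 0 under every alternative run. Their median was from -0.36 to -0.11 with single arrays left out. The count lower without overlap was then 5 to 9, against 27.8% to 33.6% of all genes. Without the dimmest 50% of genes 5 of the 10 could be tested, 5 of them lower, of which 0 had an unadjusted p under 0.05. This filter removed Emcn and Tek, the genes of the 10 that had such a p with all genes kept. Genes past the threshold, 1 higher and 0 lower, became 3 higher and 2 lower with a trended and robust prior and 0 higher with every probe set tested. With single arrays left out they were 0 to 3 higher and 0 to 158 lower, the latter without Hdc+/+ array 1, where 21 genes of the other lists passed against 0. Medians of the VEGF, Notch, transcription factor, adhesion, pericyte, platelet, liver sinusoidal, pancreatic and gastric lists changed sign without at least 1 of the arrays, and those of the TGF-beta, other endothelial, lymphatic, leukocyte, hepatocyte, intestinal, adipocyte, squamous and smooth muscle lists did not. A genotype left with 1 array was assumed to vary like the other.

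Same-numbered arrays deviated from their group means with a correlation of -0.119 over genes, which does not pair them. With the replicate number as a block, 1 gene was higher and 6 lower, 4 genes of the other lists passed, and 1 of the 10 was lower at an unadjusted p under 0.05. For this last count, and for that without the dimmest genes, no share of all genes was computed. With the numbers crossed, an alternative chosen after seeing the data as was the count without overlap, 0 genes were higher and 0 lower.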
